A study of Homo sapiens with 9 samples.

Results

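A transcript cluster is the unit that the expression array used here reports: a group of probes that the array's design assigned to one transcribed locus. Most clusters carry the symbol of 1 gene or of none, but some carry several symbols, so that 1 measured value stands for several genes at once. The clusters described here are those with 2 or more gene symbols whose log2 value lay above the array's median over all clusters on at least 3 of the 9 arrays. Of 67528 transcript clusters, 1543 carried several symbols, and 1152 of these were kept. The other 391 were left out, 367 of them above the median on no array. The 5 kept clusters that were above on exactly 3 arrays had means between 0.39 below and 0.01 above the array medians, and the 9 clusters above on exactly 2 arrays had means 0.14 to 0.03 below them.

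Cells of MM.1S, a line derived from human multiple myeloma, were cultured for 24 h with 5 nM HL13, a compound known here only by its code, with 5 nM LBH589 (panobinostat), an inhibitor of histone deacetylases, or with DMSO, the solvent, as the control. There were 3 arrays in each group. All 3 groups are the same line, and the samples are labelled biological replicates without naming separate cultures. The spread behind the p-values is therefore that of these 9 arrays and may be technical. In bulk samples, fewer cells with a transcript and less transcript per cell cannot be told apart.

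Several genes come to share a cluster in a few ways. Copies made by gene duplication can have exons so alike that a probe cannot tell them apart, as with the replication-dependent histone genes, the HLA-DRB genes, the 70 kDa heat shock proteins or the SMN genes. A small RNA can lie inside an intron of a longer host gene, from which it is cut after transcription. Neighbouring genes can overlap or be joined in a readthrough transcript. A gene can also appear under an old symbol and a new one. Histone deacetylases remove acetyl groups from histone tails and other proteins, and their inhibitors are known to raise and to lower many transcripts within a day.

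The sequences below show what "shared" means for the loci on which the results turn. The first set is the mature microRNAs of the cluster TC13000322, whose symbols are MIR20A, MIR19B1, MIR19A, MIR17, MIR92A1, MIR17HG, MIR18A and MIR18B, with the seed (bases 2 to 8, which pair with target transcripts) in capitals. They are RefSeq sequences on GRCh38.p14, on the plus strand of chromosome 13 from chr13:91350618-91350640 (miR-17-5p) to chr13:91351361-91351382 (miR-92a-3p). MIR18B is the exception, since RefSeq places it on the minus strand at chrX:134170084-134170106.
hsa-miR-17-5p: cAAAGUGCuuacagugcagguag
hsa-miR-20a-5p: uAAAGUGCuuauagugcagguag
hsa-miR-18a-5p: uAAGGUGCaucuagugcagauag
hsa-miR-18b-5p: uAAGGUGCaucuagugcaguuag
hsa-miR-19a-3p: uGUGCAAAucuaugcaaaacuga
hsa-miR-19b-3p: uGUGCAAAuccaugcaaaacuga
hsa-miR-92a-3p: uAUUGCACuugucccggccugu
The microRNAs fall into 4 seed groups: miR-17 with miR-20a, miR-18a with miR-18b, miR-19a with miR-19b, and miR-92a. The mature miR-18a and miR-18b are identical at 22 of 23 bases.

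MIR1244-1 and MIR1244-2 show the extreme case. RefSeq places the first at chr2:231713314-231713398 and the second at chr5:118974586-118974670, both on the plus strand, and their hairpins are identical at 85 of 85 bases. The mature microRNA is in capitals.
MIR1244-1 hairpin: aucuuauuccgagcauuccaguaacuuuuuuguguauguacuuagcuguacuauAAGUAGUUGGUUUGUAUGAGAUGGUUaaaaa
MIR1244-2 hairpin: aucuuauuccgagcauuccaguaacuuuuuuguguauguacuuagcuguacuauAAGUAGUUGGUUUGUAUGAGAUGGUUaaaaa

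The promoters of 3 shared sets described below, H4, HSPA1A with HSPA1B, and HLA-DRB1, are shown as RefSeq windows of 300 bases on GRCh38.p14, from 250 bases before to 50 after each gene's start. Capitals mark matches, on either strand, to CCAAT (the CCAAT box), TATAAA (the TATA box), GAANNTTC, TTCNNGAA (a pair of inverted GAA units as in heat shock elements, in either order) or GGTCCG, a stretch seen in the H4 window. H4C14 lies at chr1:149832407-149832706 on the plus strand, and H4C15, at chr1:149861110-149861409 on the minus strand, is identical over all 300 bases. HSPA1A lies at chr6:31815293-31815592 and HSPA1B at chr6:31827488-31827787, both on the plus strand, and HLA-DRB1 at chr6:32589799-32590098 on the minus strand.
H4C14: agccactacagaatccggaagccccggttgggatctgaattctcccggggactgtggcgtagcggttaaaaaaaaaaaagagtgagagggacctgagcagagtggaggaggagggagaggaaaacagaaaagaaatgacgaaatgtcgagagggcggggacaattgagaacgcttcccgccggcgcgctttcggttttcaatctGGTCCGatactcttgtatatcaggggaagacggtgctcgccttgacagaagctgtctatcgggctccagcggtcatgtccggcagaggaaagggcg
HSPA1A: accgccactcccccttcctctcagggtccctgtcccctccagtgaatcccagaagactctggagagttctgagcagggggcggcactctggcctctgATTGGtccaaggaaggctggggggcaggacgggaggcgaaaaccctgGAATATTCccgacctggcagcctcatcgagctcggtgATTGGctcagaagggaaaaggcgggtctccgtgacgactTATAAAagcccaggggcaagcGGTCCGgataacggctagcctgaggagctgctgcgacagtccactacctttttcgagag
HSPA1B: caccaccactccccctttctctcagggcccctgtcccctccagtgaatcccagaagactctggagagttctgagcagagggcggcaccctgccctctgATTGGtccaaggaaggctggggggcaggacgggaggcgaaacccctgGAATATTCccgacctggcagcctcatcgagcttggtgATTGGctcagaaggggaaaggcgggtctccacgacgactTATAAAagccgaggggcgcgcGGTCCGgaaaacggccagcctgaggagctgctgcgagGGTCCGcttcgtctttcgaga
HLA-DRB1: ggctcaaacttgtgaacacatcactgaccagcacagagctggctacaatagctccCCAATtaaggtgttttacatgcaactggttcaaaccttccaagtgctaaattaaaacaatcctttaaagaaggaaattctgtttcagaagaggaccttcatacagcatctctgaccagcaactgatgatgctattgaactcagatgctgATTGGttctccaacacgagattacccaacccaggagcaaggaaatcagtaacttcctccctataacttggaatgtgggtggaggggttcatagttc
HSPA1A and HSPA1B were identical at 277 of 301 aligned positions. Among 35116 RefSeq promoters of the same length, CCAAT was found in 34.6%, TATAAA in 11.5%, GAANNTTC in 6.77%, TTCNNGAA in 7.74% and GGTCCG in 11.3%. GGTCCG was found in 12 of the 13 H4 gene promoters and TATAAA in 7 of them. Since GGTCCG was picked from an H4 window, and H4C14 and H4C15 are identical, its count there is a description and no test. A match describes the letters and does not show that a factor binds there.

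The 1152 shared clusters were not 1152 separate measurements. They carried 884 distinct sets of symbols, and 116 of these sets lay on more than 1 cluster, 384 clusters in all. Across the 9 arrays the clusters had 1076 distinct profiles: 108 of them repeated the values of another exactly, in 32 groups of up to 16. The alternate haplotypes of chromosome 6, which hold the variable HLA region, supplied 118 of the clusters, 37 of them among these repeats. There were 818 clusters with 2 symbols, 197 with 3 and 137 with 4 or more, up to 16. In 176 clusters all symbols led to 1 current gene, an old name and a new one, and 976 held 2 or more current genes.

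All 10 plasma cell and myeloma markers lay above the median on all 9 arrays. The samples are labelled MM.1S, which is a myeloma line. Among markers of other cells, 2 of 3 of B cells, 2 of 4 of T and NK cells, 1 of 3 of monocytes, 1 of 2 of erythroid cells (HBB) and 2 of 3 of fibroblasts and endothelium did so too, but MS4A1, CD3D, CD2, CD14 and LYZ lay above it on no array. PECAM1 of endothelium averaged 6.36 with HL13, 5.22 with LBH589 and 5.61 with DMSO, and ALAS2 of erythroid cells lay above the median on 7 arrays. The average of the 10 plasma cell markers was 8.61 in HL13, 8.51 in LBH589 and 9.77 in DMSO arrays. Of these markers, 8 averaged lower than DMSO with both compounds, the widest gap being that of TNFRSF17 (BCMA), with 5.56 in HL13, 5.49 in LBH589 and 10.05 in DMSO arrays, and the other 2 averaged higher. These were CD38, with 9.68 in HL13, 8.89 in LBH589 and 8.24 in DMSO arrays, and NCAM1, with 9.66 in HL13, 9.23 in LBH589 and 6.94 in DMSO arrays. The part of these shifts in the results on other clusters was not tested. Values repeat between arrays: 27 shared clusters had the same value on all 3 HL13 arrays, 15 on all 3 LBH589 arrays and 15 on all 3 DMSO arrays.

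Taken over all members, both compounds moved about as many shared clusters up as down, and HL13 moved more of them past the test than LBH589 did. With limma over all 34694 clusters above the same filter and an adjusted p under 0.05, HL13 changed 637 shared clusters against DMSO (55.3%), and 46.2% of all tested clusters were called in that comparison. Of these, 333 were higher and 304 lower, where 24.9% and 21.3% of all tested clusters were. LBH589 changed 545 (47.3%), with 41.4% over all clusters. It raised 276 and lowered 269, where 21.7% and 19.6% of all clusters were. Called changes of at least 2-fold were less frequent than over all clusters, at 35 (3.04%) with HL13 beside 4.69% and 24 (2.08%) with LBH589 beside 3.5%. Clusters with 1 symbol were called at 54.6% with HL13 and 50.4% with LBH589, and clusters with no symbol at 37.1% with HL13 and 31.7% with LBH589.

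The filter and the repeats touch these counts little. Of the 1152 clusters, 1118 were above the median on all 9 arrays, and 626 changed with HL13 when only clusters above on all 9 were tested. Among the 1076 distinct profiles, 583 changed with HL13 and 521 with LBH589. Only 5 clusters passed the filter through 1 group alone, MIR17HG among them (its 3 DMSO arrays), so that their presence depended on the groups. The median log2 difference of the shared clusters was 0.01 for HL13 and 0.02 for LBH589, as it was over all tested clusters (0.01 and 0.02).

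Both compounds were measured at the same dose and time, so they were set against each other directly, as 1 pair. HL13 and LBH589 differed in 300 shared clusters (26.0%), beside 20.4% of all tested clusters. Clusters with 1 symbol were called at 26.9%, about as often as the shared ones, and clusters with no symbol at 13.3%. HL13 was higher in 157 (13.6%, beside 10.8% of all clusters and 13.2% of those with 1 symbol). It was lower in 143 (12.4%, beside 9.65% of all clusters and 13.7% of those with 1 symbol). Without the first HL13 array the 157 became 97. Only 1 shared cluster differed by 2-fold or more, where 0.291% of all clusters did. The comparisons of HL13 and of LBH589 with DMSO use the same 3 DMSO arrays, so they are not independent: 459 clusters were called with both compounds, and 7 of them in opposite directions.

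The clusters were sorted by the spelling of their symbols alone, and no difference between these classes was tested. Of 222 clusters that pair a small RNA with a host or neighbour, HL13 raised 56 and lowered 88 (39.6%, beside 21.3% of all clusters), and LBH589 raised 52 and lowered 84 (37.8%, beside 19.6%). Of 356 clusters in which symbols share a stem, HL13 raised 105 (29.5%, beside 24.9%) and lowered 65 (18.3%, beside 21.3%). LBH589 raised 88 of them (24.7%, beside 21.7%) and lowered 45 (12.6%, beside 19.6%). Symbols such as H4C14 are too short for a shared stem, so 37 of the 40 histone clusters fell among those of different named genes, as did TC10000310, which lists WASHC2C and the old symbol FAM21B, and this class therefore also holds near-identical copies. Of its 267 clusters, HL13 raised 59 (22.1%, beside 24.9% of all clusters) and lowered 78 (29.2%, beside 21.3%). Of 78 readthrough clusters it raised 28 (35.9%) and lowered 18 (23.1%), beside the same shares of all clusters. Of 146 clusters with an uncharacterised partner it raised 38 (26.0%, near the share of all clusters) and lowered 46 (31.5%). The class of small RNA copies holds 83 clusters in which every symbol was spelled as a small RNA. With HL13, 47 of them were higher (56.6%, beside 24.9% of all clusters) and 9 lower (10.8%, beside 21.3%). But this count rests on repeats: the 83 clusters had 47 distinct profiles, 16 of them higher and 7 lower.

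**Figure D1:**
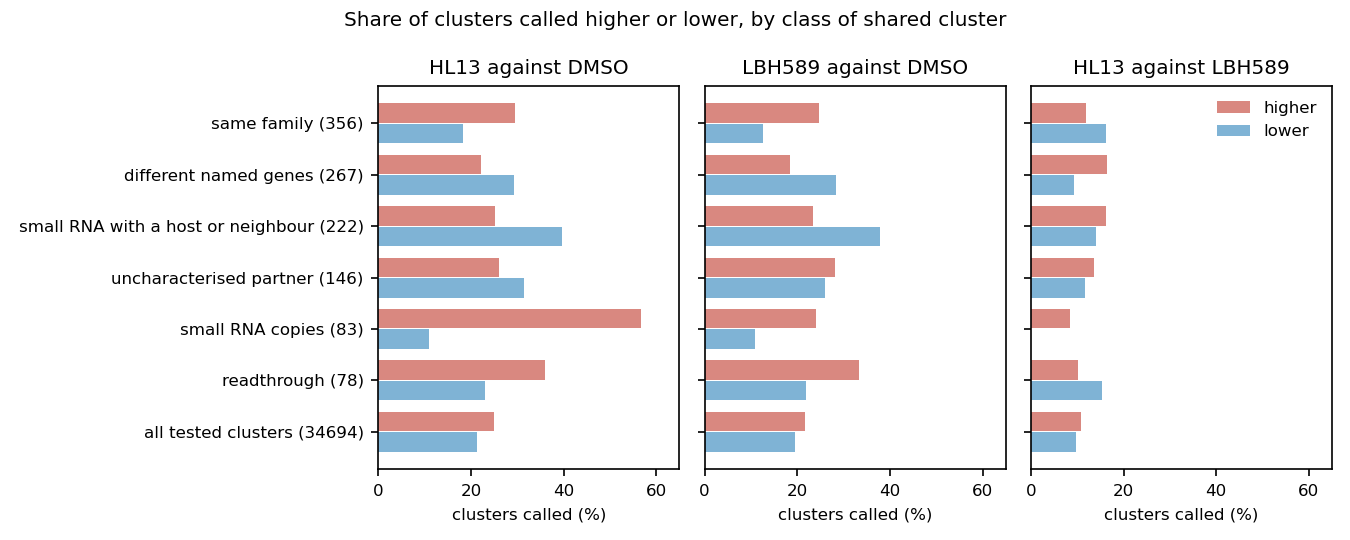
The share of clusters called higher (upper bar) or lower (lower bar) by limma, in percent, for the 6 classes of shared cluster, sorted by symbol spelling, with the number tested in brackets, and for all 34694 tested clusters. Small RNAs with a host lean to lower under both compounds, and the tall bar of small RNA copies in the first panel holds 47 clusters with only 16 distinct profiles.

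Histone clusters carried the largest rises among the shared clusters with each compound. The replication-dependent histone genes supply nucleosomes for new DNA, and 11 clusters carry the same 14 H4 symbols. These 11 clusters had 11 distinct profiles, so the same symbols did not mean the same reading. TC01001173, on chromosome 1, where H4C14 and H4C15 have the identical promoter windows described above, read 11.12, 11.14 and 11.03 on HL13 arrays, 10.62, 10.48 and 10.66 on LBH589 arrays, and 8.67, 8.51 and 8.75 on DMSO arrays. The 3 groups did not overlap. HL13 exceeded DMSO by 2.45 ± 0.07 (log2 ± SE, 5.48-fold, adjusted p = 8.07e-09) and LBH589 by 1.94 ± 0.07 (3.84-fold, 4.07e-08). The other chromosome 1 cluster, TC01003192, was 2.39 above DMSO with HL13 and 1.87 with LBH589.

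The H4 clusters did not move as 1 unit, although all 11 bear the same symbols. With HL13, 8 were higher and 1 lower, from -0.13 to 2.45, and with LBH589 6 were higher and 2 lower, from -0.18 to 1.94. TC06001355, whose first listed gene is H4C8, separated the compounds most: it read 9.52, 9.58 and 9.51 with HL13, 8.21, 8.14 and 8.41 with LBH589, and 7.99, 7.76 and 7.82 with DMSO. It was the 1 shared cluster with a 2-fold difference between the compounds, 1.28 ± 0.08 (2.43-fold, adjusted p = 1.05e-05). TC06001424, whose level was the highest of the 11 in DMSO, averaged 11.50 there and showed no call with HL13 (-0.00, adjusted p = 0.988). H4C3, measured alone in a cluster of its own, was 0.08 ± 0.10 above DMSO with HL13 (adjusted p = 0.555).

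The H3 and H2B clusters gave the same mixed picture. TC06001427, 1 of 9 clusters with the same 10 H3 symbols, read 9.69, 9.73 and 9.80 with HL13, 9.36, 9.23 and 9.28 with LBH589, and 7.28, 7.55 and 7.64 with DMSO. Its groups were apart, by 2.25 ± 0.08 for HL13 (adjusted p = 3.52e-08) and 1.80 ± 0.08 for LBH589 (1.87e-07) over DMSO. TC06004064 (first gene H3C10) rose by 1.48 with HL13 and 1.32 with LBH589, while TC06001342 (first gene H3C2) differed by -0.12 with HL13 and -0.14 with LBH589 (adjusted p = 0.0415 for HL13 and 0.0222 for LBH589). TC06001424 and TC06001342 lie outside the naming rule and were chosen after their values were seen.

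The 3 clusters with the H2B symbols H2BC4, H2BC6, H2BC7, H2BC8 and H2BC10 did not all move one way. They were chosen after their values were seen. TC06001347 (first gene H2BC4) read 7.08, 7.13 and 7.08 with HL13 against 6.33, 6.28 and 6.22 with DMSO, a difference of 0.83 ± 0.06 (adjusted p = 2.55e-06). TC06000171 (first gene H2BC7) read 9.15, 9.24 and 9.18 with HL13 against 9.82, 9.66 and 9.76 with DMSO, a difference of -0.55 ± 0.06 (3.47e-05). Arrays of the groups did not overlap in either cluster, and with LBH589 the differences from DMSO were 0.32 for TC06001347 and -0.77 for TC06000171. TC06001350 (first gene H2BC8) was 0.43 above DMSO with HL13 and had no call with LBH589 (-0.01). H2BC10, measured alone in a cluster of its own, fell as TC06000171 did. It differed from DMSO by -0.56 ± 0.06 with HL13 (adjusted p = 5.39e-05) and by -0.81 ± 0.06 with LBH589 (5.07e-06). It too was chosen after its values were seen. The replication-independent H3-3B and H3-3A, which share TC17001882 with MIR4738, rose by 1.59 ± 0.03 with HL13 and 1.32 ± 0.03 with LBH589.

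Over all 40 histone clusters, HL13 raised 20 (where 24.9% of all tested clusters rose) and lowered 7 (17.5%, beside 21.3%), and LBH589 raised 13 (32.5%, beside 21.7%) and lowered 10 (25.0%, beside 19.6%). The shares that fell were near those of all clusters. Between the compounds, HL13 was higher in 17 of the 40 (42.5%, beside 10.8% of all clusters) and lower in none (beside 9.65%). Of the 9 H2A clusters, HL13 raised 2 (beside 24.9% of all clusters) and lowered 4 (beside 21.3%). LBH589 raised 1 (beside 21.7%) and lowered 5 (beside 19.6%). These are few clusters, and some of them carry the same set of symbols.

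**Figure D2:**
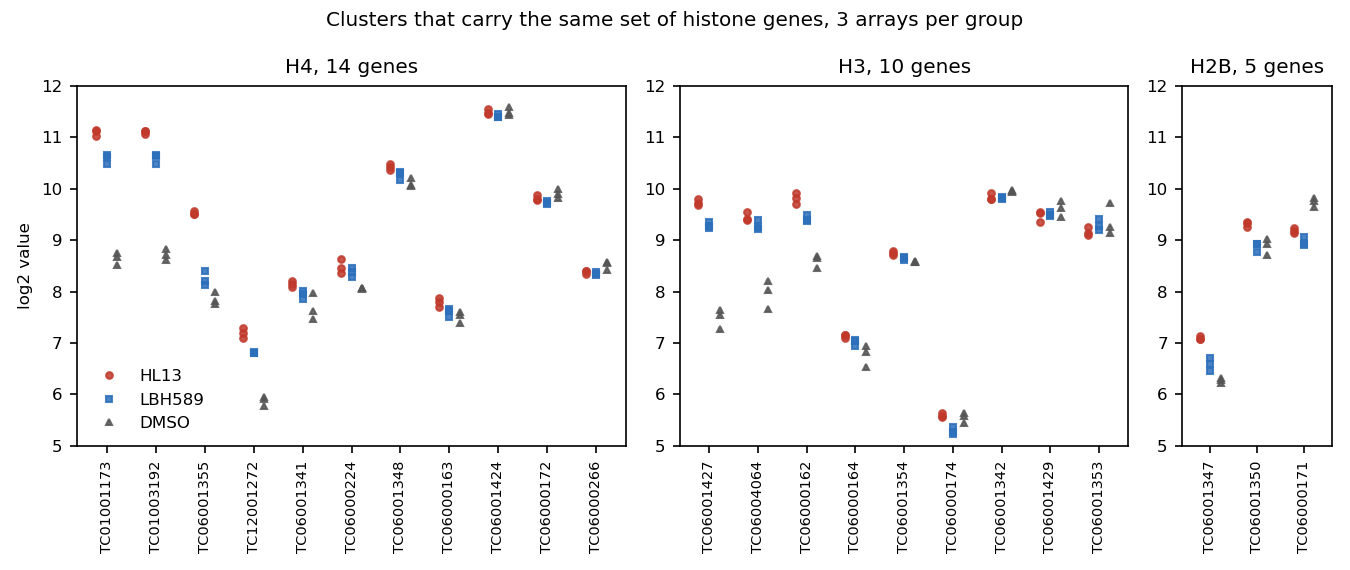
Log2 values of every cluster that carries the full H4, H3 or H2B symbol set, 1 point per array, with HL13 left, LBH589 in the middle and DMSO right within each cluster, ordered by the HL13 minus DMSO difference. The leftmost H4 and H3 clusters stand about 2 log2 units over DMSO, and those at the right of each panel lie at or below it.

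Among the other clusters with the largest rises were host genes of microRNAs and clusters that hold 1 gene under 2 names. NEAT1, the architectural RNA of paraspeckles, shares TC11000628 with MIR612 and read 10.19, 10.16 and 10.15 with HL13, 10.09, 10.22 and 10.35 with LBH589, and 8.65, 8.49 and 8.45 with DMSO. Both compounds lay above all DMSO arrays and overlapped each other. The rise was 1.64 ± 0.07 with HL13 (adjusted p = 8.95e-08) and 1.70 ± 0.07 with LBH589 (9.77e-08). OSBPL6 with MIR548N rose by 1.61 with HL13 and 1.47 with LBH589, and RNF170 with MIR4469 by 1.52 with HL13 and 1.06 with LBH589. MYLIP, an E3 ligase that marks the LDL receptor for decay, rose with MIR4639 by 0.95 in HL13 and 0.56 in LBH589 arrays (difference 0.39 ± 0.04, adjusted p = 0.000330). CDC37, a co-chaperone of HSP90, rose with MIR1181 by 0.60 in HL13 and 0.82 in LBH589 arrays (difference -0.22 ± 0.04, 0.00450). SMIM14, listed also as C4orf34, rose by 1.81 with HL13 (3.52-fold) and 1.34 with LBH589 (2.54-fold).

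MIR21, a microRNA that lies at the end of the VMP1 gene, offers a case where the shared and the single cluster can be set side by side. The cluster of VMP1 and MIR21 read 10.79, 10.76 and 10.72 with HL13, 10.83, 10.89 and 10.95 with LBH589, and 10.35, 10.40 and 10.35 with DMSO. Both compounds were higher than DMSO without overlap, HL13 by 0.39 ± 0.04 (adjusted p = 3.28e-05) and LBH589 by 0.52 ± 0.04 (5.38e-06). The cluster of MIR21 alone was 0.59 ± 0.10 higher with HL13 (adjusted p = 0.000788), and 0.23 ± 0.10 with LBH589, which did not pass (0.0946). This pair was chosen after its values were seen.

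MIR17HG, the host transcript of the miR-17-92 microRNAs printed above and a known target of MYC, read lower with both compounds. Its cluster gave 4.46 on each HL13 array, 4.40, 4.38 and 4.46 on LBH589 arrays, and 5.95, 5.72 and 5.80 on DMSO arrays. The treated arrays lay below the array median and the DMSO arrays above it. The mean difference from DMSO was -1.37 for HL13 and -1.41 for LBH589, given here as a description with no test, because the cluster was kept only through its 3 DMSO arrays. CYTOR and MIR4435-2HG, a pair of long noncoding RNAs with near-identical sequence, fell by 1.56 with HL13 and 1.62 with LBH589. The cluster of the microRNA hairpins MIR4435-1 and MIR4435-2 alone fell by 0.79 with HL13 and by 0.57 with LBH589.

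Small nucleolar RNAs guide the chemical modification of ribosomal RNA. A set of 76 clusters pairs a small nucleolar RNA, or a small Cajal body RNA, with a host. Of these, HL13 raised 15 (19.7%, beside 24.9% of all tested clusters) and lowered 30 (39.5%, beside 21.3%). LBH589 raised 9 (11.8%, beside 21.7%) and lowered 37 (48.7%, beside 19.6%). Copies of 1 locus were counted separately: the 6 clusters of DDX39B with SNORD84 all fell with LBH589. The 5 clusters of SNHG32 with SNORD48 and SNORD52 all fell with both compounds. Another 138 clusters list a symbol spelled as a microRNA, MIR4435-2HG among them, with another gene. Of these, HL13 raised 39 (28.3%) and lowered 55 (39.9%), and LBH589 raised 41 (29.7%) and lowered 44 (31.9%). The 6 clusters of NELFE with MIR1236 all fell with HL13 and had no call with LBH589. EIF4A1, the helicase that opens messenger RNA for the ribosome, is listed with SNORA67, SNORD10 and SNORA48 and read 8.45, 8.41 and 8.51 with HL13, 8.60, 8.58 and 8.59 with LBH589, and 9.58, 9.66 and 9.62 with DMSO. It fell by 1.16 ± 0.04 with HL13 (adjusted p = 1.89e-08) and by 1.03 ± 0.04 with LBH589 (5.27e-08), with no overlap of arrays.

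Further clusters with small RNAs were lower with both compounds. DKC1, the pseudouridine synthase of box H/ACA particles, with SNORA56, SNORA36A and MIR664B, fell by 1.13 with HL13 and by 0.97 with LBH589. The cluster TC11002195, which lists SNORA32, SNORA1, SNORA18, SNORA8 and MIR1304 among its symbols, fell by 0.85 with HL13 and by 1.0 with LBH589. RBMX, a splicing factor, with SNORD61 fell by 0.81 with HL13 and by 1.08 with LBH589. PTBP1, the polypyrimidine tract binding protein, with MIR4745 fell by 0.78 with HL13 and by 1.04 with LBH589. WDR74 with the U2 small nuclear RNAs RNU2-2 and RNU2-1 fell by 0.93 with HL13 and by 0.77 with LBH589. Hosts that code for ribosomal proteins took the other direction in some cases: RPS2 with SNORA64 rose by 0.28 ± 0.04 with HL13 and 0.13 ± 0.04 with LBH589 (adjusted p = 0.0224, but 0.0577 with only LBH589 and DMSO arrays in the fit), while RPL21 with SNORA27 and SNORD102 fell by 0.42 with HL13 and by 0.44 with LBH589.

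A small RNA's own cluster often did not follow its host's. For 19 host clusters the array also has a cluster of the small RNA alone, 27 pairs in all, some of them copies on alternate haplotypes. In the 5 pairs whose host fell with HL13, 2 of them from EIF4A1, the small RNA fell in 1, rose in 1 and had no call in 3, with median changes of -0.82 for the hosts and -0.04 for the small RNAs. In the 5 pairs whose host fell with LBH589 the small RNA fell in 2 and had no call in 3, with median changes of -1.03 for the hosts and -0.16 for the small RNAs. Where the host rose, the small RNA rose in 2 of 6 pairs with HL13 and in 0 of 3 with LBH589, and fell in none (0) with either. SNORD61 alone read 9.49, 9.43 and 9.51 with HL13 and 8.94, 9.10 and 9.05 with DMSO, a rise of 0.45 ± 0.06 (adjusted p = 0.000263), beside the fall of its host RBMX cluster. SNORA48 and SNORD10 differed from DMSO by 0.12 and -0.05 with HL13 (adjusted p = 0.0776 and 0.455), beside the fall of 1.16 in EIF4A1. The array does not separate a mature small RNA from its precursor.

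**Figure D3:**
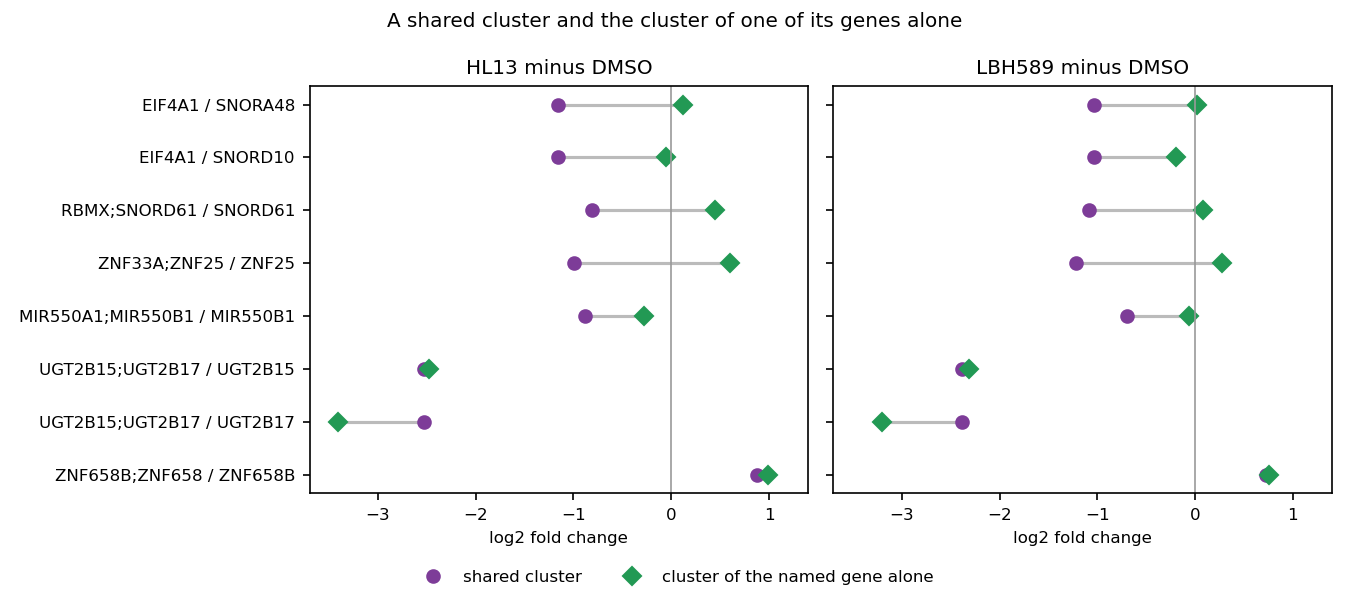
Log2 fold change against DMSO of shared clusters (circles) and of the cluster of 1 of their genes alone (diamonds, the gene after the slash), with HL13 in the left panel and LBH589 in the right. The 8 pairs were chosen after their values were seen. EIF4A1, RBMX and ZNF33A;ZNF25 stand left of 0 while the single clusters stand near or right of 0, and both UGT2B genes fall as their shared cluster does.

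More widely, 284 of the shared clusters had at least 1 gene with a tested cluster of its own, in 422 pairs. In 175 pairs both were called with HL13, 169 of them in the same direction, and in 139 pairs both were called with LBH589, 135 of them in the same direction. These pairs share arrays and are not independent, since copies were crossed with copies: each HSPA1A/B cluster is paired with several HSPA1A clusters. TC02002540, of RNU6-1 and RNU6-6P, had the same differences as the RNU6-1 clusters, 0.49 with HL13 and 0.32 with LBH589. Such pairs agree whatever the compounds did. Other near-identical copies may share probes. ZNF25 was an exception: the cluster of ZNF33A and ZNF25 fell by 0.99 with HL13 and by 1.22 with LBH589, while ZNF25 alone rose by 0.60 with HL13 (adjusted p = 3.42e-06) and 0.27 with LBH589 (0.000874).

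Clusters of U1 and U6, small nuclear RNAs of the spliceosome, were higher with both compounds. The 7 clusters of U1 copies (RNU1-1 and 6 further symbols) had a single profile, 13.25, 13.20 and 13.28 with HL13, 13.12, 13.16 and 13.16 with LBH589, and 13.03, 13.06 and 12.99 with DMSO, and count as 1 measurement. Their rises were small, 0.22 ± 0.04 with HL13 (adjusted p = 0.000867; 0.14 after quantile normalization, 0.00714) and 0.12 ± 0.04 with LBH589 (0.0275, but 0.0752 with a replicate block). The U6 copies RNU6-1 and RNU6-6P had 2 profiles on 7 clusters and rose by 0.49 with HL13 and by 0.30 to 0.32 with LBH589. The 5S ribosomal RNA genes filled 22 clusters, 16 of them with 1 profile, which was 0.19 ± 0.06 higher with HL13 (adjusted p = 0.0298). After quantile normalization this difference was 0.08 and did not pass (0.168), nor did it pass without DMSO replicate 1 (0.14, adjusted p = 0.105). With LBH589 it was 0.15 higher, with a 95% interval of 0.01 to 0.29, and did not pass (0.0809). There were 13 SNORD116 clusters, small nucleolar RNAs of the imprinted Prader-Willi region. HL13 raised 8 (6 distinct profiles; beside 24.9% of all tested clusters) and LBH589 none (beside 21.7%). Between the compounds only 3 of the 13 were called, all higher with HL13. The cluster of SNORD116-3 and SNORD116-9 was 0.32 higher with LBH589, which passed in several other settings (adjusted p = 0.0482 with only LBH589 and DMSO arrays in the fit).

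The largest fall was that of UGT2B15 and UGT2B17, enzymes that attach glucuronic acid to steroids. Their shared cluster, TC4_ctg9_hap1000004, read 5.60, 5.52 and 5.41 with HL13, 5.58, 5.69 and 5.69 with LBH589, and 7.95, 8.09 and 8.08 with DMSO. All treated arrays lay below all DMSO arrays, at -2.53 ± 0.06 (5.77-fold, adjusted p = 3.8e-09) with HL13 and -2.38 ± 0.06 (5.21-fold, 7.47e-09) with LBH589. The cluster of UGT2B15 alone gave -2.48 with HL13 and -2.31 with LBH589, and that of UGT2B17 alone -3.41 with HL13 and -3.21 with LBH589.

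Chemokine clusters fell with both compounds. CCL3L3 and CCL3L1, copies of the chemokine MIP-1alpha, are known for a role in myeloma bone disease. TC17001395 read 9.20, 9.26 and 9.21 with HL13, 9.21, 9.07 and 9.21 with LBH589, and 10.41, 10.28 and 10.35 with DMSO. The DMSO arrays stood above both, and the differences were -1.12 ± 0.05 with HL13 (adjusted p = 9.52e-08) and -1.18 ± 0.05 with LBH589 (9.21e-08). Their second cluster fell by 1.0 with HL13 and by 1.07 with LBH589, and the 2 clusters of the related CCL4L2 and CCL4L1 by 0.50 and 0.43 with HL13 and 0.74 and 0.57 with LBH589. TNFRSF13B (TACI), a receptor of plasma cells for BAFF and APRIL, listed with TBC1D27, fell by 1.15 ± 0.04 with HL13 (2.21-fold) and by 1.0 ± 0.04 with LBH589. Over the 11 clusters on the chemokine and cytokine list, HL13 raised 1 and lowered 8 (72.7%, beside 21.3% of all tested clusters). LBH589 raised none and lowered 7 (63.6%, beside 19.6%). The list also holds the receptor TNFRSF13B, and clusters with the same symbols, such as those of CCL3L3 and CCL3L1, were counted separately.

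Other falls of 0.7 or more joined an enzyme or cell cycle gene to a neighbour. RRM1, the large subunit of ribonucleotide reductase, with LINC02749 fell by 1.0 with HL13 and by 0.77 with LBH589, a difference of -0.23 ± 0.04 between the compounds (adjusted p = 0.00189). MTHFD1L, a mitochondrial folate enzyme, fell by 0.87 with HL13 and by 0.84 with LBH589. PAK6 with BUB1B, a spindle checkpoint kinase, fell by 0.74 with HL13 and by 0.65 with LBH589. RCN1, a calcium-binding protein of the endoplasmic reticulum, with PAX6-AS1 fell by 1.26 with HL13 and by 1.49 with LBH589. Among the readthrough clusters, ZFP91 with CNTF fell by 0.84 with HL13 and by 0.87 with LBH589, and TRIM34 with TRIM6-TRIM34 rose by 0.75 with HL13 and 0.71 with LBH589. Of 22 clusters with mitochondrial protein genes, HL13 raised 2 and lowered 10 (45.5%, beside 21.3% of all tested clusters), and LBH589 raised 2 and lowered 6 (27.3%, beside 19.6%). NDUFS8, a subunit of respiratory complex I, with MIR4691 fell by 0.72 with HL13 and by 0.58 with LBH589. Of 37 clusters with RNA processing genes, HL13 raised 8 and lowered 15 (40.5%), and LBH589 raised 6 and lowered 24 (64.9%), beside the same shares of all clusters. Here too, copies of 1 locus were counted separately.

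Families from segmental duplications, long stretches of the genome copied between distant sites, gave several groups of clusters that moved together. All 9 NBPF clusters, genes of the Olduvai domain repeats that multiplied in primates, rose with both compounds, by 0.36 to 0.60 with HL13 and 0.30 to 0.51 with LBH589. Of 11 GOLGA6 and GOLGA8 clusters, 10 rose with HL13 and 7 with LBH589. All 5 RGPD clusters rose with HL13 and 3 with LBH589, and none was called between the compounds. GTF2IRD2 and GTF2IRD2B, copies at the Williams-Beuren region, fell by 1.11 and 0.74 in their 2 clusters with HL13 and by 1.27 and 0.91 with LBH589. All 3 GTF2H2 clusters fell by 0.34 to 0.38 with HL13 and by 0.27 to 0.32 with LBH589. The 18 DUX4L and the 4 TBC1D3 clusters had no call with either compound. Clusters of a block share sequence, so the number of clusters is not a number of independent genes. Over the whole family list of 123 clusters, HL13 raised 51 (41.5%, beside 24.9% of all tested clusters) and lowered 27 (a share near the 21.3% of all clusters), and LBH589 raised 47 (38.2%, beside 21.7%) and lowered 11 (8.94%, beside 19.6%).

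Several blocks separated the compounds. The ANKRD20A clusters, ankyrin repeat genes and pseudogenes of the pericentromeric regions, rose with HL13 by 0.77 to 1.17 and with LBH589 by 0.21 to 0.39 in all 4 clusters. TC09002932 read 7.60, 7.60 and 7.52 with HL13, 6.67, 6.82 and 6.91 with LBH589, and 6.45, 6.28 and 6.50 with DMSO, with all groups apart. HL13 exceeded LBH589 there by 0.78 ± 0.07 (adjusted p = 0.000110). ULK4P1 and ULK4P2, pseudogenes of the kinase ULK4, were 0.49 ± 0.07 higher with HL13 than with LBH589 (0.00122). All 3 STAG3L clusters were 0.36 to 0.39 higher with HL13 than with LBH589, and all 4 SPDYE clusters differed by -0.28 to -0.19.

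SMN1 and SMN2, the near-identical genes whose loss or dosage underlies spinal muscular atrophy, fell with HL13. TC05000317 read 7.18, 7.11 and 7.08 with HL13, 7.51, 7.54 and 7.69 with LBH589, and 7.71, 7.78 and 7.65 with DMSO. HL13 lay below every other array, while LBH589 and DMSO overlapped. The difference of HL13 from DMSO was -0.59 ± 0.06 (adjusted p = 1.8e-05) and from LBH589 -0.46 ± 0.06 (0.000495), and the LBH589 difference from DMSO was -0.13, with a 95% interval of -0.26 to -0.00 (0.0969). Without LBH589 replicate 3 the LBH589 difference was -0.18 and passed (adjusted p = 0.0189). The second SMN cluster, TC05000326, gave -0.60 for HL13 against DMSO, -0.15 for LBH589 against DMSO and -0.45 for HL13 against LBH589. Both were chosen after their values were seen.

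The WASHC2 genes, subunits of the WASH complex that builds actin on endosomes, moved in opposite directions. WASHC2C and WASHC2A in TC10000294 read 8.48, 8.45 and 8.45 with HL13, 8.97, 8.94 and 8.96 with LBH589, and 8.83, 8.76 and 8.85 with DMSO. HL13 was below all and LBH589 above all DMSO arrays, with -0.35 ± 0.04 for HL13 (adjusted p = 2.62e-05) and 0.14 ± 0.04 for LBH589 (0.00867). The other 2 WASHC2 clusters, which list the old symbol FAM21B, gave -0.34 and -0.33 with HL13 and 0.16 and 0.15 with LBH589. The 4 remaining clusters with opposite calls were LOC728554 with THOC3 (HL13 -0.28, LBH589 0.22), CENPP with LOC100128361 (HL13 -0.20, LBH589 0.18), NHERF1 with MIR3615 (HL13 -0.19, LBH589 0.13) and MYCBP with GJA9 (HL13 -0.15, LBH589 0.24). None of these differences reached 2-fold. The 4 clusters of the ZNG1 zinc chaperones came close to this pattern, with no call under HL13 (-0.13 to -0.10) and a rise of 0.27 to 0.32 with LBH589.

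The NPIPA genes, of a family on chromosome 16 that expanded in apes, fell with HL13 and were lower with it than with LBH589. NPIPA2 and NPIPA3 in TC16002042 read 9.48, 9.43 and 9.48 with HL13, 9.65, 9.82 and 9.85 with LBH589, and 9.87, 9.82 and 9.80 with DMSO. HL13 lay below both groups, at -0.37 ± 0.05 from DMSO (adjusted p = 0.000331) and -0.31 ± 0.05 from LBH589 (0.00338), and LBH589 overlapped DMSO. All 6 NPIPA clusters gave this result, with -0.39 to -0.29 for HL13 against DMSO and, with no call, -0.06 to -0.02 for LBH589. RNF5 and its pseudogene RNF5P1, a ubiquitin ligase of the endoplasmic reticulum, had 7 clusters of 3 distinct profiles, at -0.39 to -0.36 with HL13 and, with no call, -0.13 to -0.12 with LBH589.

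HLA-DRB1 codes for the beta chain of the HLA-DR molecule that presents peptides to helper T cells, and HLA-DRB3 and HLA-DRB4 are its paralogues on some haplotypes. All 6 shared HLA-DRB clusters were higher with HL13. TC6_apd_hap1000101 read 9.89, 9.85 and 9.81 with HL13, 9.10, 8.93 and 9.06 with LBH589, and 8.98, 8.93 and 8.88 with DMSO. HL13 stood above every other array and LBH589 overlapped DMSO. HL13 exceeded DMSO by 0.92 ± 0.05 (1.89-fold, adjusted p = 4.93e-07) and LBH589 by 0.82 ± 0.05 (1.77-fold, 1.27e-05), while LBH589 was 0.10 over DMSO with a 95% interval of -0.02 to 0.22 (0.173). Without LBH589 replicate 2 the LBH589 difference was 0.15 and passed (adjusted p = 0.0364).

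The remaining HLA-DRB clusters gave 0.35 to 0.86 with HL13 and 0.04 to 0.09 with LBH589, none of the LBH589 values called. After quantile normalization 3 of the 6 passed with LBH589, at 0.15 to 0.16 (adjusted p = 0.0398 to 0.0457), TC6_apd_hap1000101 among them. The clusters whose first gene is HLA-DRB3 were dimmer (6.34 to 6.48 in DMSO) and moved least. All lie on alternate haplotypes, and which of those alleles the line carries was not examined. HLA-DRB1 also had 2 clusters of its own, 0.67 and 0.92 higher with HL13. Other shared clusters of the same chromosome region did not follow: MSH5 with SAPCD1 rose in all 7 clusters by 0.21 to 0.34 with HL13 and more, by 0.35 to 0.56, with LBH589, and the 7 clusters of PPP1R18 (KIAA1949) fell, from -0.83 to -0.38 with HL13 and from -0.58 to -0.23 with LBH589.

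HSPA1A and HSPA1B, the stress-induced 70 kDa chaperones whose promoters are printed above, showed the reverse order. TC06000385 read 9.50, 9.44 and 9.45 with HL13, 9.87, 9.84 and 9.88 with LBH589, and 9.23, 9.24 and 9.23 with DMSO. The 3 groups were apart, with LBH589 highest. HL13 exceeded DMSO by 0.23 ± 0.03 (1.18-fold, adjusted p = 0.000214), LBH589 by 0.63 ± 0.03 (1.55-fold, 3.28e-07), and HL13 minus LBH589 was -0.40 ± 0.03 (4.58e-05). All 6 clusters of the pair rose with LBH589, by 0.60 to 0.67, and 4 rose with HL13, while all 6 were lower with HL13 than with LBH589, at -0.56 to -0.26. Clusters of HSPA1A alone rose by 0.34 to 0.37 with HL13 and by 0.54 to 0.56 with LBH589. There the difference between the compounds was smaller, at -0.20 to -0.19. HSPA1A and HSPA1B each hold 1 GAANNTTC match, 106 and 105 bases before the start, a TATAAA and 2 CCAAT matches in the same order, whereas HLA-DRB1 holds CCAAT matches alone. GGTCCG had 1 match in HSPA1A and 2 in HSPA1B.

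The copies of MIR1244 fell more with LBH589. TC05000561 and TC12001190 had the same values, 9.01, 8.82 and 8.91 with HL13, 8.33, 8.40 and 8.32 with LBH589, and 9.16, 9.23 and 9.31 with DMSO. The groups were apart, with LBH589 lowest, at -0.32 ± 0.06 with HL13 (adjusted p = 0.00142) and -0.88 ± 0.06 with LBH589 (1.76e-06). One more cluster, which lists MIR1244 copies with PTMA (prothymosin alpha) and its pseudogenes fell by 0.18 with HL13 and by 0.32 with LBH589.

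**Figure D4:**
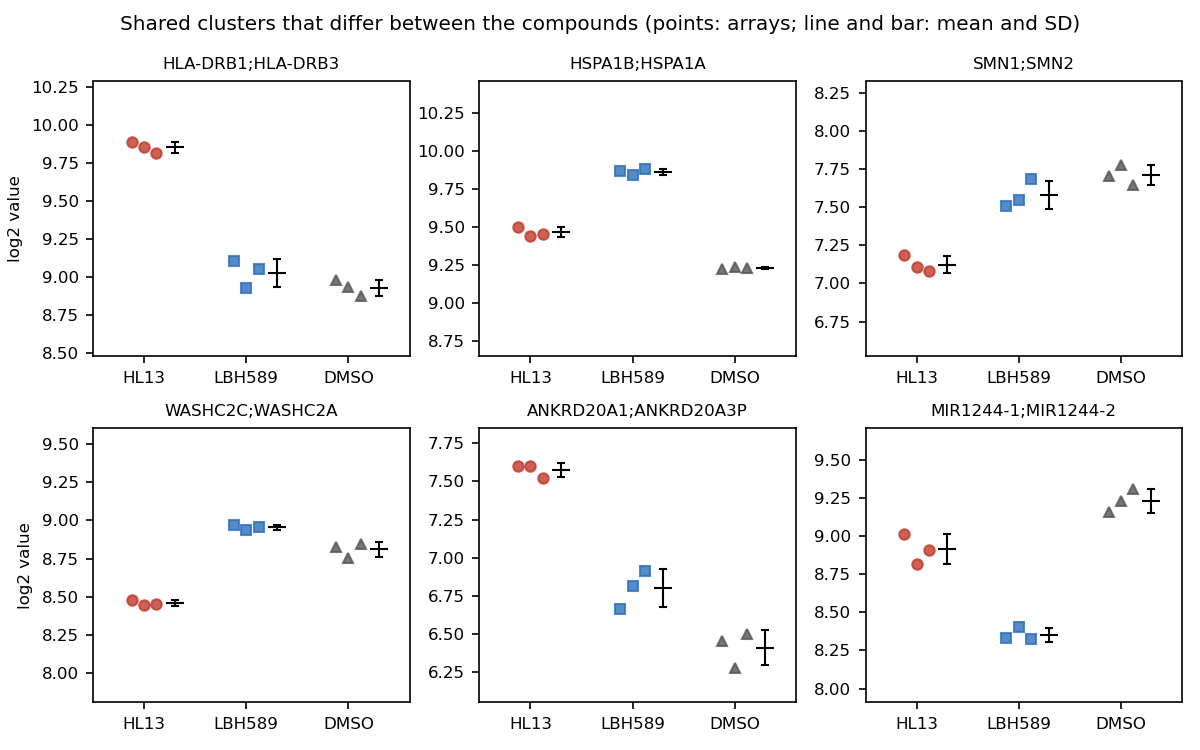
Log2 values on each array, with the mean and SD beside them, for 6 shared clusters over axes of equal span. HLA-DRB1 and ANKRD20A are highest with HL13, HSPA1A/B with LBH589, SMN1/2 is lowest with HL13, MIR1244 lowest with LBH589, and WASHC2 lies on opposite sides of DMSO.

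Single clusters also separated the compounds. ZFAS1, a noncoding RNA that hosts small nucleolar RNAs and is listed also as ZNFX1-AS1, read 9.94, 9.93 and 9.93 with HL13, 9.24 on each LBH589 array, and 8.61, 8.73 and 8.72 with DMSO. It rose by 1.24 ± 0.04 with HL13 and 0.55 ± 0.04 with LBH589, and HL13 was 0.69 ± 0.04 over LBH589 (adjusted p = 7.5e-06). HIRA, a chaperone that deposits histone H3.3, listed with C22orf39, was lower with HL13 than with LBH589 (-0.49 ± 0.03, 2.1e-05), as were MTFR2 (FAM54A), a mitochondrial fission regulator (-0.58 ± 0.05, 8.68e-05), and IPO11 with LRRC70 (-0.53 ± 0.08, 0.00165). MTFR2 was not called with LBH589 against DMSO, at 0.11 with a 95% interval of -0.01 to 0.22.

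**Figure D5:**
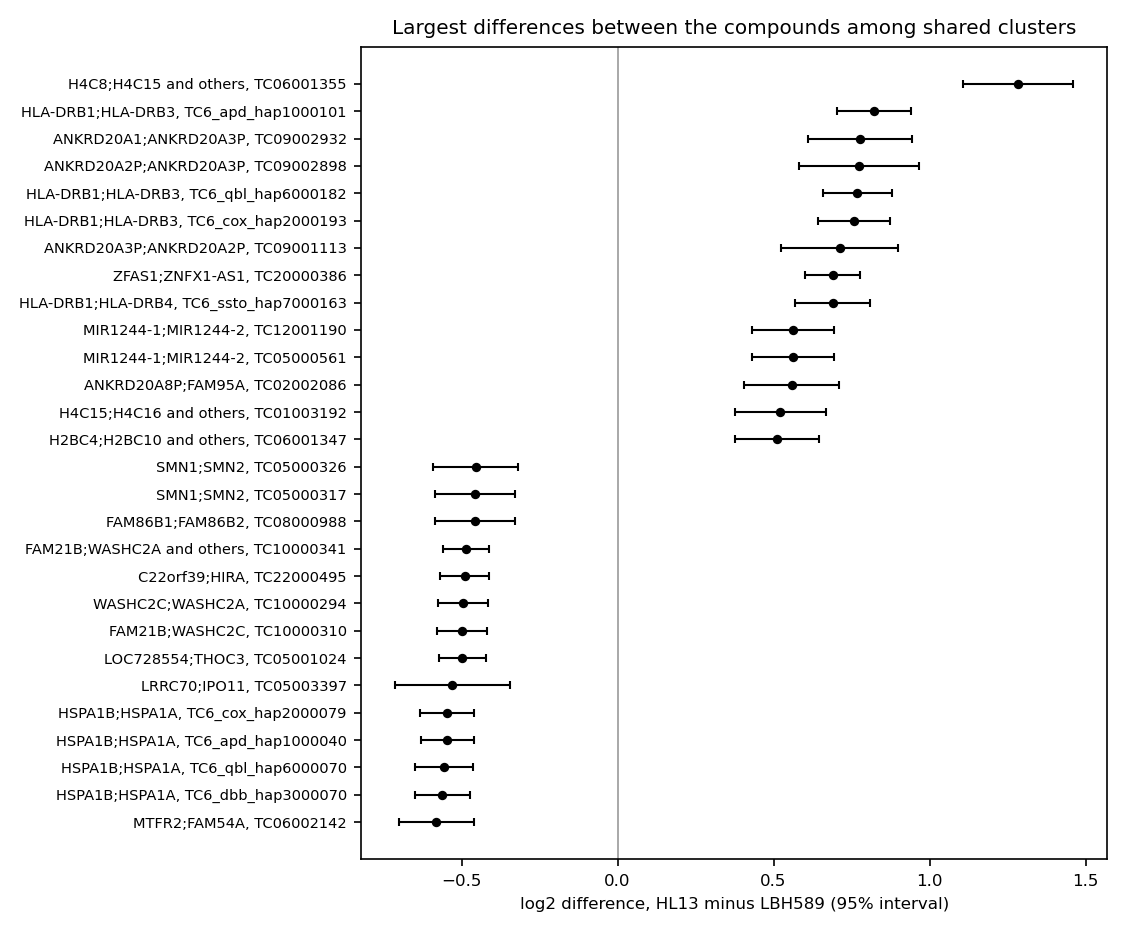
The 14 highest and 14 lowest log2 differences of HL13 minus LBH589 among shared clusters that passed the test with no overlap of arrays, each with its 95% interval from limma. Clusters of 1 family lie together: HLA-DRB and ANKRD20A on the right, HSPA1A/B, WASHC2 and SMN on the left, and the H4 cluster TC06001355 alone beyond 1.

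Families that mark other cell types had few calls. The 4 olfactory receptor, 5 killer immunoglobulin-like and Fc receptor and 1 T cell receptor clusters had no call in any comparison. Over all tested clusters, 46.2% were called with HL13, 41.4% with LBH589 and 20.4% between the compounds. But these lists are short and dim: their median levels were 5.67, 5.77 and 6.13 in that order, beside 7.27 over all shared clusters. The array medians were 5.26 to 5.31. Of 5 clusters on a list of keratin, cornified envelope and defensin genes, 1 of the 2 with DEFA1B and DEFA1, alpha-defensins of neutrophils, was lower with HL13 (-0.19, adjusted p = 0.0319, but 0.0586 with a replicate block). Of 2 haemoglobin clusters 1 of HBA2 with HBA1 was 0.17 higher with HL13 (adjusted p = 0.0361, but 0.0640 with a replicate block) and the other was 0.19 higher without passing (0.0608), whereas HBB alone averaged 5.45 in HL13, 5.39 in LBH589 and 5.91 in DMSO arrays. The 23 cancer-testis antigen clusters had a median level of 6.32. They had 2 rises with HL13 (8.7%, beside 24.9% of all tested clusters) and 1 with LBH589 (4.35%, beside 21.7%). Of 3 immunoglobulin clusters, that of the heavy chain constant genes fell by 0.27 with HL13 and by 0.23 with LBH589, LOC642131 with IGHV4-28 rose by 0.34 with each, and the kappa cluster with IGKC read 5.97 on each HL13 array and had no call.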

How the data were processed

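The values are log2 expression values as deposited by the authors for 9 arrays of MM.1S cells; background correction, normalization and summarisation are not given in the sources used here, whose methods describe sequencing. Of 70523 rows, the 67528 transcript clusters were used, and no column was left out. Symbols came from the platform annotation and current names and sequences from RefSeq (GRCh38.p14); 163 shared clusters had a gene in the microRNA table and 850 in the promoter table. limma 3.58.1 (lmFit and eBayes, two-sided, R 4.3.3) was fitted to the 34694 clusters above the array median on at least 3 arrays, with 1 mean per group, and p-values were adjusted over all of them (Benjamini-Hochberg, threshold 0.05). The fit was tested on simulated data. Arrays give no depth, and their number limits the precision.

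The members and lists were chosen with earlier results of these data known. Named are, per comparison, the 10 largest rises and falls among called clusters with non-overlapping arrays, per class and family up to 4 with the largest HL13 change, the 8 highest levels, and clusters of genes the study names. Clusters outside that rule were chosen after their values were seen: the named NBPF10, ZNG1, NPIPA, RNF5, PPP1R18, CCL4L2, U6, 5S, PTMA, NHERF1 and MYCBP clusters, TC07000465 (GTF2IRD2B), TC10000341 (FAM21B), TC12001190 (MIR1244), and those so described in the text.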

Additional observations from a re-analysis of the deposited data

How the results depend on the processing

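Counts were recomputed with quantile normalization, median centring, other filters on dim clusters, other variance priors, only the groups compared, adjustment over clusters with a symbol, only clusters with 2 or more current genes, a replicate block, each array left out, and, chosen after seeing the data, the median over all rows, only the primary chromosomes, and 1 cluster per set of symbols. Counts stayed within 1.5 times in all but 2 cases. Without HL13 replicate 1, clusters higher with HL13 than with LBH589 numbered 97 in place of 157, and with 1 cluster per set of symbols none (0) differed by 2-fold between the compounds in place of 1, since TC06001355 bears the symbols of other clusters.

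Leaving out each array in turn gave 557 to 661 changed (276 to 341 higher, 273 to 321 lower, 31 to 36 by 2-fold) for HL13 against DMSO, 471 to 568 (232 to 291, 239 to 277, 24 to 26) for LBH589 against DMSO, and 207 to 297 (97 to 149, 103 to 150, 1 to 1) for HL13 against LBH589.

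Median centring turned the balance of calls for HL13 against DMSO to 284 higher and 342 lower, so the near-even split has no fixed direction. Same-numbered arrays did not deviate together, and with a replicate block 577, 486 and 223 clusters changed in the 3 comparisons, against 637, 545 and 300 without it. No call of a named cluster reversed. Some calls of small differences were lost in several settings: HSPA1A/B with HL13 in TC6_apd_hap1000040 and TC6_cox_hap2000079, 5S, DEFA1B with DEFA1 and HBA2 with HBA1 with HL13, U1, RPS2 and NHERF1 with LBH589, LOC642131 with IGHV4-28 with each compound, and GTF2IRD2, USP6NL, EIF4A1, OSBPL6, RPS2, RCN1 and TNFRSF13B between the compounds. Some differences that had not passed did so in 1 or more settings: SNORD116-3, 5S, both SMN clusters, RNF5 (TC06000395), IPO11 with LRRC70 and 3 HLA-DRB clusters with LBH589, and HBA1 with HBA2 (TC16000008) and 2 HSPA1A/B clusters with HL13. The cause was not tested.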
